A study of Arabidopsis with 12 samples.

Results

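The NAC genes of Arabidopsis thaliana were examined in leaf portions of shaded seedlings that had been given sucrose or sorbitol. NAC proteins are plant transcription factors that share a DNA-binding domain named after NAM, ATAF1, ATAF2 and CUC2. In leaves the family is best known for genes that drive or delay senescence, answer drought, abscisic acid and jasmonate, set organ boundaries, or direct the thickening of vessel and fibre walls. Several members are made as proteins anchored in a membrane and reach the nucleus after release. Members were the rows of the deposited table whose symbol starts with NAC and a digit, or whose description names a NAC domain in either of 2 wordings, which gave 106 of 32833 genes. Of these, 56 reached 1 TPM (a level scaled to transcript length and to the library total) in at least 3 of the 12 libraries and are described here, among 19862 genes that passed the same filter.

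The libraries form 4 groups of 3. They are the phytochrome A mutant phyA-211 with sucrose, phyA-211 with sorbitol, the wild type Col-0 with sucrose, and Col-0 with sorbitol. Seedlings of every group had 10 days of white light and then 6 h of shade (red to far-red, 0.17) in liquid medium that held the sugar or the sugar alcohol at 30 mM, so no group shows shade itself. The mutant is represented by 1 allele. Whether replicates were grown separately is not stated in the labels, so the p-values cover only the spread of these libraries, which may be technical.

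PHYA stood at 32.5 to 44.9 TPM in the 6 phyA-211 libraries and at 223 to 385 TPM in the 6 Col-0 libraries. The 6 leaf markers (RBCS1A, RBCS2B, CAB1, LHCB2.1, RCA and GAPA) summed to 22680 to 49840 TPM in a library and the 9 root markers to 23.54 to 104.3 TPM. Read depth is unknown because TPM holds no counts. The third replicate of phyA-211 with sucrose lay apart from its group and had the lowest sum of leaf markers. Its mean correlation to its group was 0.953, against 0.965 to 0.978 for the other libraries. Many of the values that rest on it are therefore given with and without it. In RNA from whole leaf portions, fewer cells of a type and less RNA per cell cannot be told apart.

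Of the 56 genes, 21 averaged at least 10 TPM over the 12 libraries and 17 averaged under 2 TPM. NAC082, which is needed for the response to disturbed ribosome assembly, had the highest mean over the 12 libraries, at 51.9 to 93.6 TPM. Next came NAC102, linked to low-oxygen tolerance, at 26.5 to 81.4 TPM, ANAC078 (listed as NAC2, AT5G04410), a membrane-anchored activator of proteasome genes, at 37.5 to 66.7 TPM, and ATAF2, a wound-responsive factor, at 27.7 to 79.3 TPM. The ranges of these 4 genes overlapped each other, but NAC082 lay above ANAC078 and ATAF2 in each of the 12 libraries. NAC102 lay above NAC082 in each phyA-211 sorbitol library (62.3, 81.4 and 67.1 TPM against 54.5, 75.6 and 59.6 TPM). It was also narrowly above NAC082 in replicates 2 and 3 of Col-0 with sorbitol. The order of NAC102, ANAC078 and ATAF2 changed between libraries. NAC083 (VNI2, a repressor that binds VND7 and delays leaf ageing) held 25.9 to 46.5 TPM and the senescence factor ORE1 (listed as NAC6, AT5G39610) 8.08 to 61.3 TPM. ORE1 moved across a wide range, whereas NAC017, a membrane-anchored regulator of the mitochondrial stress response, stayed at 22.8 to 34.3 TPM. At the low end, CUC1 ranged over 0.49 to 1.81 TPM and CUC2 over 0.29 to 2.09 TPM. The member with the fewest libraries at the filter was XND1, a xylem factor, with 5 libraries at or above 1 TPM and a highest value of 1.51 TPM, and the highest that did not pass was CUC3, a boundary gene, with 2 such libraries and a highest value of 1.22 TPM. No member passed through libraries of 1 group only.

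**Figure D1:**
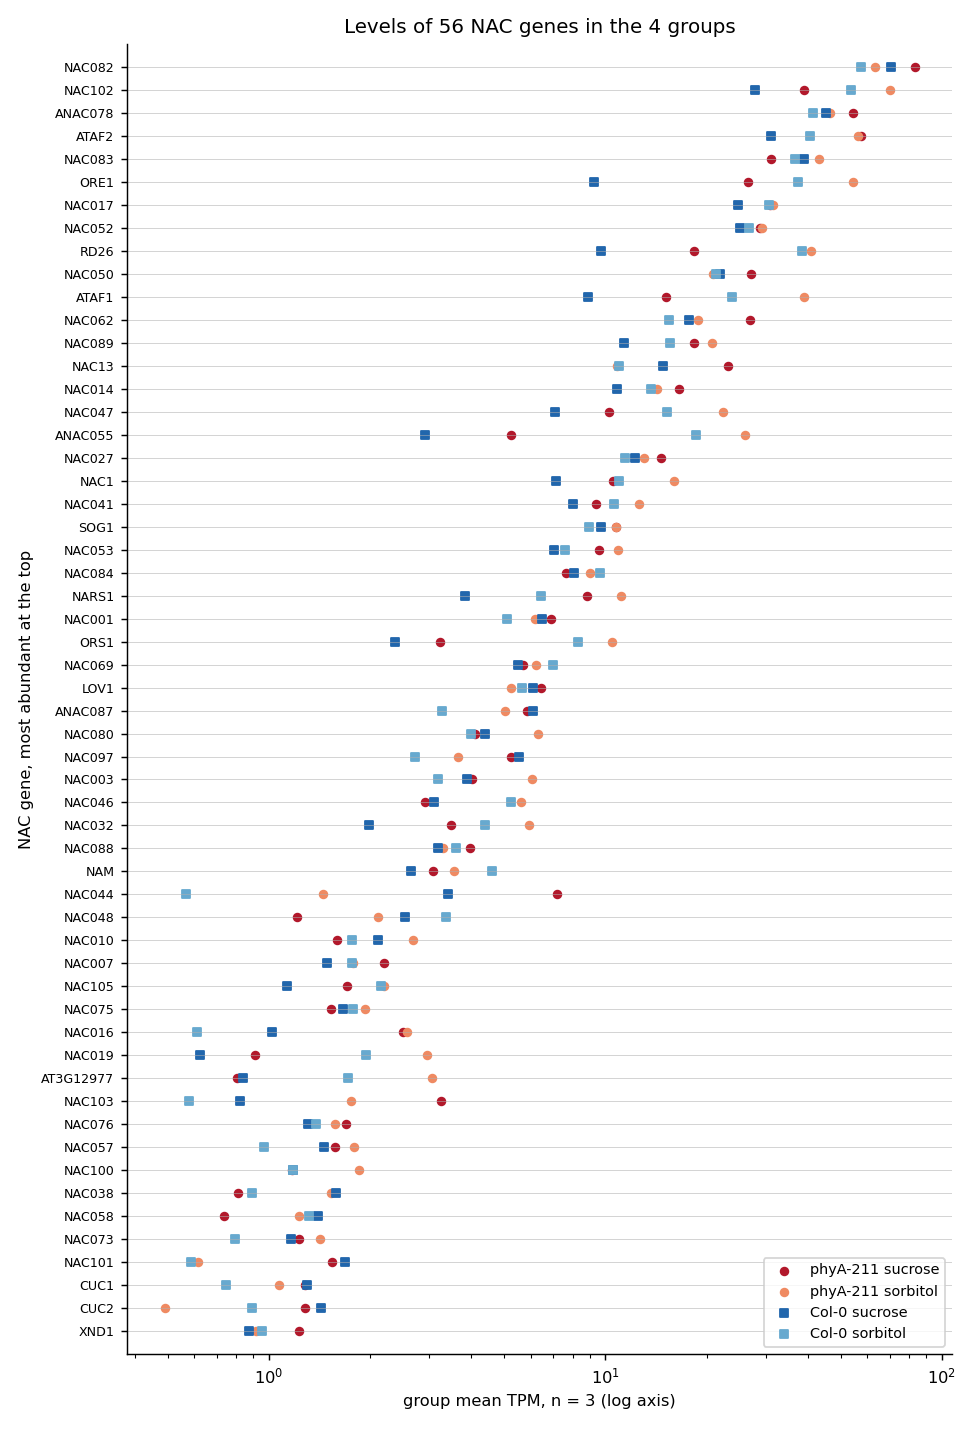
Mean TPM (log axis) of each of the 56 NAC genes in the 4 groups, with n = 3 libraries each, ordered by the mean over the 12 libraries. NAC082 is at the top and XND1 at the bottom, and the points of ORE1, RD26, ATAF1, ANAC055 and ORS1 spread widely, with Col-0 with sucrose lowest. The points of NAC044, NAC103 and NAC016 spread widely too, with Col-0 with sorbitol lowest.

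ANAC055, ATAF1, ORE1, ORS1, RD26 and 4 other NAC genes were lower with sucrose than with sorbitol in both genotypes. Each gene was tested with limma on log2(TPM + 1) over the 19862 genes with Benjamini-Hochberg adjustment, and rose or fell is written of genes whose adjusted p was under 0.05. In phyA-211, 12 of the 56 genes fell (21.4%) and 3 rose (5.36%), against 10.5% of all genes tested that fell and 16.9% that rose (27.5% in either direction). In Col-0, 13 fell (23.2%) and 2 rose (3.57%), against 9.95% and 12.1% of all genes tested (22.1% in either direction). The median log2 change of the 56 genes was -0.14 in phyA-211 and -0.05 in Col-0, beside medians of 0.11 and 0.08 over all genes tested. The groups did not overlap for 10 members that were lower and 6 that were higher in phyA-211, against 15.6% and 25.9% of all genes tested. In Col-0 this held for 18 lower and 9 higher members, against 17.6% and 25% of all genes tested. The share of members that fell was above the background in both genotypes and the share that rose was below it. Under median-ratio scaling, rises made up 48.4% of the calls over all genes in phyA-211 and 45.9% in Col-0, against 61.6% and 55% here.

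The genes that fell in both genotypes were 9 of the 12 falls in phyA-211 (75%) and 9 of the 13 in Col-0 (69.2%). Beside ANAC055, ATAF1, ORE1, ORS1 and RD26 they were NAC019, NAC032, NAC047 and NAC102. These 2 comparisons share no libraries, but they share the estimate of each gene's spread. The overlap of falls between genotypes over all genes tested was not computed, so these percentages have no background. Without replicate 3 of phyA-211 with sucrose, 11 members fell and 2 rose in phyA-211, and 13 fell and 4 rose in Col-0, where that replicate enters only through the shared estimate of spread. Over all genes tested, 7.62% fell and 9.64% rose in phyA-211 in that fit, and 11.8% fell and 15.8% rose in Col-0. All 9 were among the falls of both genotypes in that fit too.

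**Figure D2:**
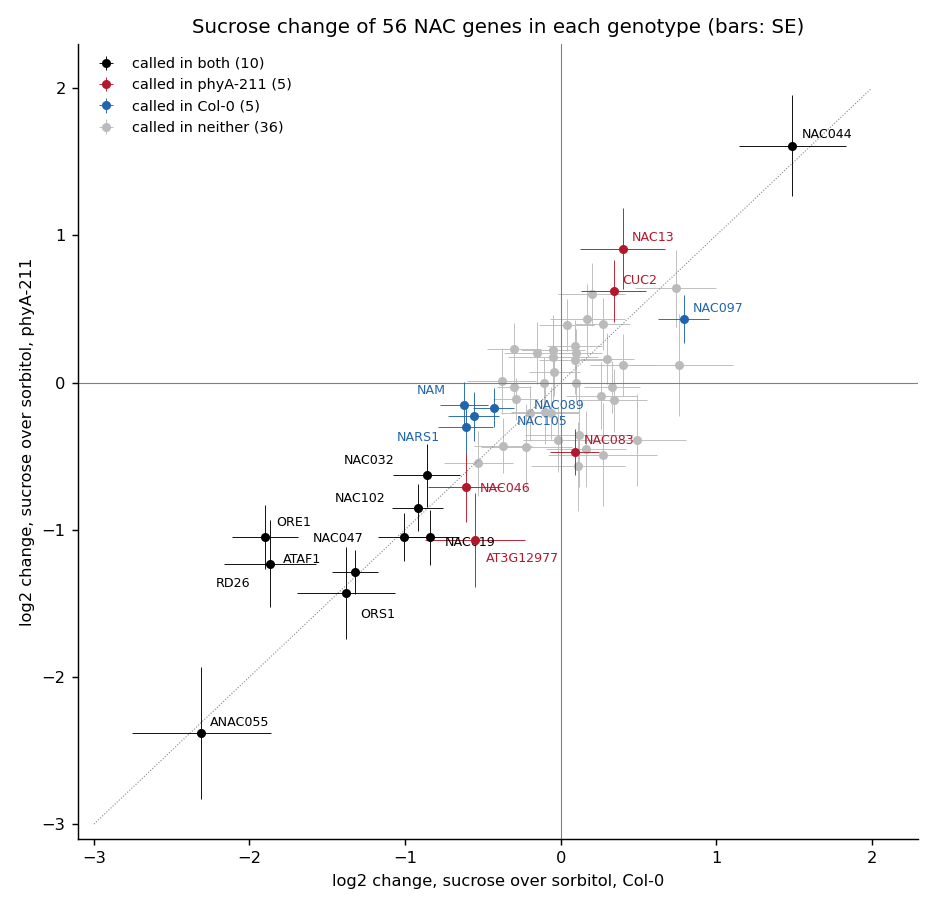
Change with sucrose relative to sorbitol on the log2(TPM + 1) scale for 56 NAC genes, phyA-211 on the y axis and Col-0 on the x axis, with bars for the SE and a dotted line of equal change. Named genes passed the test in 1 or both genotypes; ANAC055 lies furthest down (-2.38 in phyA-211 and -2.31 in Col-0) and NAC044 furthest up (1.61 and 1.49).

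ORE1 and its close relative ORS1 (listed as NAC3, AT3G29035) promote leaf senescence. ORE1 had 33.8, 28.4 and 17.4 TPM in phyA-211 with sucrose, against 56.1, 45.6 and 61.3 TPM with sorbitol (log2 change -1.05, SE 0.215, adjusted p = 0.00677). In Col-0 it had 9.05, 8.08 and 10.6 TPM with sucrose, against 34.5, 34.01 and 43.4 TPM with sorbitol (log2 change -1.90, SE 0.215, adjusted p = 0.000782). Every sucrose library lay under every sorbitol library of its genotype, and the mutant libraries with sucrose all lay above those of Col-0. Replicate 3 was the lowest of the phyA-211 sucrose libraries, and without it the change in phyA-211 was -0.78 on the log2 scale with adjusted p = 0.0122. ORS1 had 2.11, 3.74 and 3.81 TPM in phyA-211 with sucrose, against 6.95, 10.8 and 13.7 TPM with sorbitol (log2 change -1.43, SE 0.313, adjusted p = 0.00862). The Col-0 libraries held 2.62, 1.96 and 2.55 TPM with sucrose, against 4.51, 8.33 and 12.1 TPM with sorbitol (log2 change -1.38, SE 0.313, adjusted p = 0.00978). The sorbitol libraries of ORS1 spread widely in each genotype, without reaching the sucrose libraries.

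ANAC055 (listed as NAC3, AT3G15500), NAC019 and RD26 are close relatives that act in the responses to drought, abscisic acid and jasmonate, and RD26 also promotes chlorophyll loss. ANAC055 had 6.66, 8.16 and 0.93 TPM in phyA-211 with sucrose, against 24.4, 23.8 and 29.6 TPM with sorbitol (log2 change -2.38, SE 0.447, adjusted p = 0.0049). Its level in Col-0 was 2.42, 3.07 and 3.23 TPM with sucrose, against 15.1, 17.2 and 23.6 TPM with sorbitol (log2 change -2.31, SE 0.447, adjusted p = 0.0046). This was the largest fall among the 56 genes in each genotype. In phyA-211 it rested in part on replicate 3, without which the change was -1.68 on the log2 scale with adjusted p = 0.0011. RD26 had 23.4, 23.1 and 8.53 TPM in phyA-211 with sucrose, against 40.9, 41.2 and 40.1 TPM with sorbitol (log2 change -1.23, SE 0.297, adjusted p = 0.0125). Wild-type libraries had 10.3, 8.48 and 10.4 TPM with sucrose, against 31.5, 36.8 and 47.3 TPM with sorbitol (log2 change -1.87, SE 0.297, adjusted p = 0.00221). Of the 3 phyA-211 libraries with sucrose, replicate 3 of RD26 was at the Col-0 level and the other 2 lay well above it. Without replicate 3 the RD26 change in phyA-211 was -0.78 on the log2 scale with adjusted p = 0.00914, and with only the 6 phyA-211 libraries in the fit the call was lost (adjusted p = 0.0585). NAC019 was much less abundant, with 0.97, 0.78 and 0.97 TPM in sucrose-treated phyA-211, against 2.81, 3.27 and 2.79 TPM with sorbitol (log2 change -1.05, SE 0.187, adjusted p = 0.00421). In Col-0 it had 0.61, 0.69 and 0.57 TPM with sucrose, against 1.25, 2.49 and 2.11 TPM with sorbitol (log2 change -0.84, SE 0.187, adjusted p = 0.00908). At this level the log2(TPM + 1) scale understates the change.

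The ATAF subfamily has 4 members, all tested, and 3 of them fell with sucrose in each genotype. ATAF1, which promotes senescence and activates the trehalase gene TRE1 under carbon starvation, had 15.1, 17.01 and 13.4 TPM in phyA-211 with sucrose, against 32.96, 45.9 and 37.6 TPM with sorbitol (log2 change -1.29, SE 0.149, adjusted p = 0.00121). The Col-0 libraries held 7.7, 9.18 and 9.82 TPM with sucrose, against 21.6, 26.6 and 23.01 TPM with sorbitol (log2 change -1.32, SE 0.149, adjusted p = 0.000782). The groups were far apart in both genotypes, at a higher level in the mutant. NAC102 had 32.96, 34.2 and 49.9 TPM in phyA-211 with sucrose, against 62.3, 81.4 and 67.1 TPM with sorbitol (log2 change -0.85, SE 0.162, adjusted p = 0.00517). Its level in Col-0 was 29.4, 26.5 and 27.6 TPM with sucrose, against 47.6, 59.6 and 53.6 TPM with sorbitol (log2 change -0.92, SE 0.162, adjusted p = 0.00326). NAC102 groups did not overlap in either genotype. NAC032, a stress-inducible relative of ATAF1, had 2.76, 2.98 and 4.67 TPM in phyA-211 with sucrose, against 4.45, 7.54 and 5.81 TPM with sorbitol (log2 change -0.63, SE 0.215, adjusted p = 0.0476). Wild-type libraries had 2.38, 1.51 and 2.06 TPM with sucrose, against 3.75, 5.0 and 4.46 TPM with sorbitol (log2 change -0.86, SE 0.215, adjusted p = 0.0153). The phyA-211 groups of NAC032 overlapped, and that call was lost on leaving out any library except replicate 3 of phyA-211 with sucrose or replicate 1 of phyA-211 with sorbitol (adjusted p up to 0.129). The Col-0 call was lost without replicate 2 or replicate 3 with sorbitol or replicate 2 with sucrose (adjusted p of 0.0547, 0.0521 and 0.0679). ATAF2, the other member, did not pass in either genotype. Its phyA-211 libraries held 47.5, 45.6 and 79.3 TPM with sucrose and 46.3, 69.8 and 52.6 TPM with sorbitol, and its Col-0 libraries 28.5, 27.7 and 36.99 TPM with sucrose and 41.97, 45.8 and 34.1 TPM with sorbitol, with overlap in both.

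NAC047 (SHYG), which drives upward leaf bending in waterlogged plants, had 8.83, 10.6 and 11.3 TPM in phyA-211 with sucrose, against 18.6, 24.6 and 23.8 TPM with sorbitol (log2 change -1.05, SE 0.165, adjusted p = 0.00286). In Col-0 it had 8.61, 6.13 and 6.48 TPM with sucrose, against 13.6, 14.3 and 17.8 TPM with sorbitol (log2 change -1.01, SE 0.165, adjusted p = 0.00247). Its neighbour on the chromosome, NAC046, which promotes chlorophyll breakdown, had 2.7, 2.88 and 3.16 TPM in phyA-211 with sucrose, against 3.49, 7.18 and 6.14 TPM with sorbitol (log2 change -0.71, SE 0.241, adjusted p = 0.0467). Both genes were lower with sucrose in all phyA-211 libraries, and the NAC046 call was lost on leaving out any library except replicate 1 of phyA-211 with sorbitol, replicate 1 of Col-0 with sucrose or replicates 1 and 3 of Col-0 with sorbitol (adjusted p up to 0.149). In Col-0 NAC046 did not pass, at 4.01, 2.27 and 3.02 TPM with sucrose and 4.02, 5.29 and 6.44 TPM with sorbitol, although the groups did not overlap by a narrow margin.

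**Figure D3:**
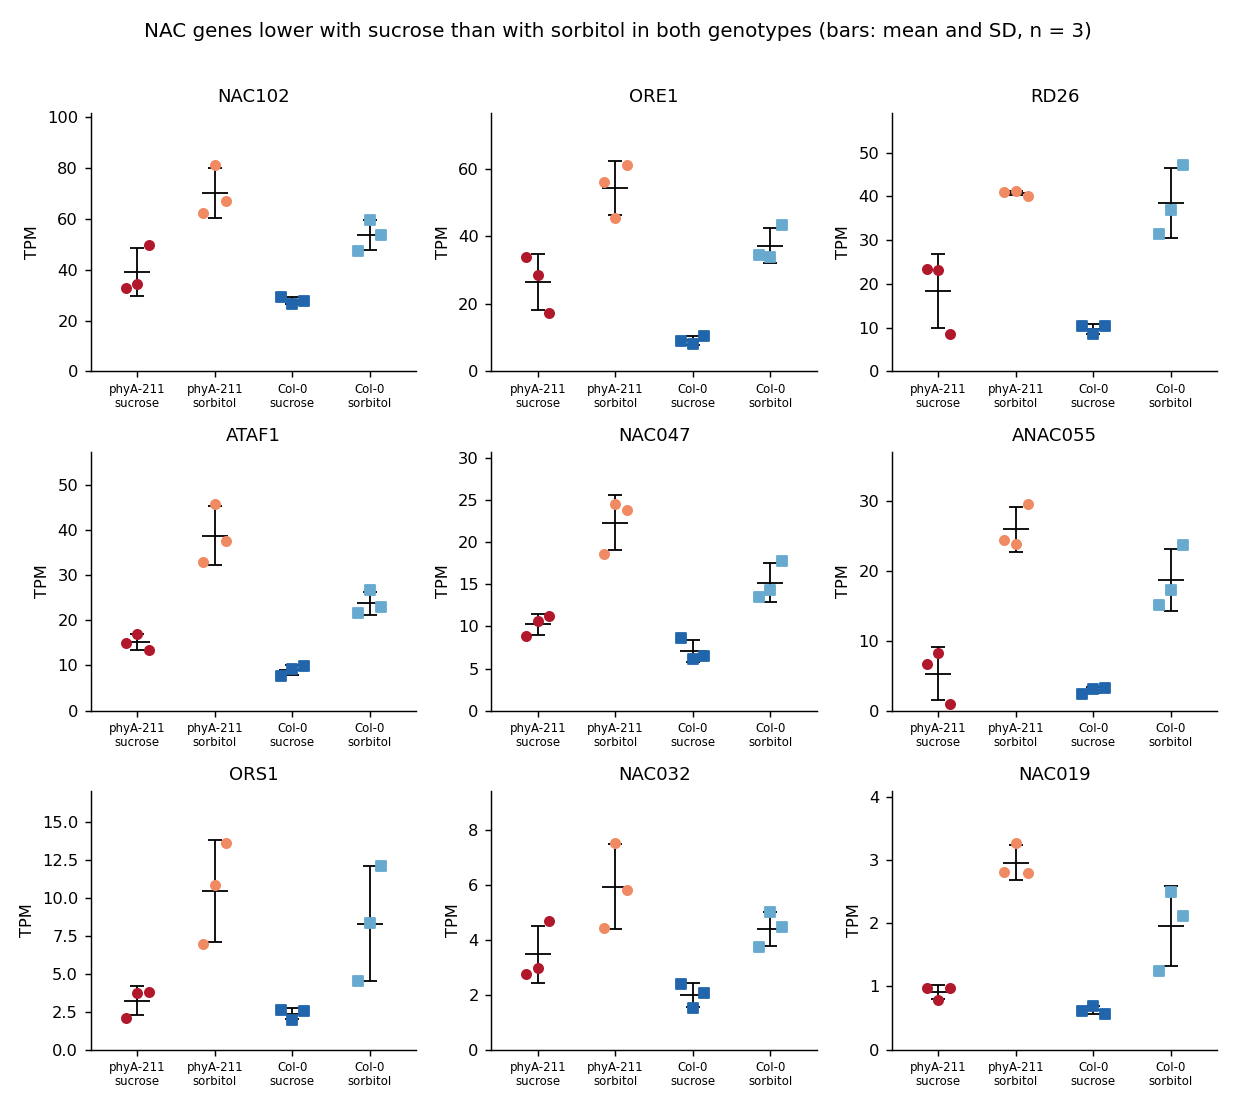
TPM in each library for the 9 NAC genes that fell with sucrose in both genotypes, with the mean and SD of 3 libraries per group. In the 9 panels the sucrose points lie below the sorbitol points of the same genotype, except that NAC032 groups overlap in phyA-211, where replicate 3 with sucrose (4.67 TPM) exceeds a sorbitol library (4.45 TPM).

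A further 3 members fell in phyA-211 and passed in that genotype without passing in Col-0, counting NAC046. The others were NAC083, at 25.9, 29.0 and 38.6 TPM with sucrose, against 37.5, 46.5 and 45.4 TPM with sorbitol (log2 change -0.47, SE 0.156, adjusted p = 0.044), and AT3G12977, which has no symbol, at 0.44, 1.18 and 0.8 TPM with sucrose, against 1.03, 3.94 and 4.22 TPM with sorbitol (log2 change -1.07, SE 0.319, adjusted p = 0.0288). Groups of both genes overlapped, and the AT3G12977 call was lost on leaving out any of replicates 1 and 3 of phyA-211 with sucrose or replicates 2 and 3 of phyA-211 with sorbitol (adjusted p up to 0.124). The NAC083 call was lost on leaving out any library except replicate 3 of phyA-211 with sucrose, replicate 1 of phyA-211 with sorbitol, replicate 3 of Col-0 with sucrose or replicate 3 of Col-0 with sorbitol (adjusted p up to 0.138). In Col-0, NAC083 had 42.2, 40.5 and 33.99 TPM with sucrose and 36.03, 33.3 and 40.4 TPM with sorbitol, and AT3G12977 had 0.84, 0.88 and 0.8 TPM with sucrose and 1.38, 1.67 and 2.09 TPM with sorbitol. NAC083 thus had overlapping groups in Col-0, with means of 38.9 TPM with sucrose and 36.6 TPM with sorbitol. These lay between the phyA-211 means of 31.2 TPM with sucrose and 43.1 TPM with sorbitol.

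Falls in Col-0 that did not pass in phyA-211 numbered 4. NARS1 (listed as NAC2, AT3G15510) and NAM, relatives that shape the seed coat, were both among them. NARS1 had 3.78, 3.79 and 3.95 TPM in Col-0 with sucrose, against 5.83, 7.74 and 5.76 TPM with sorbitol (log2 change -0.61, SE 0.177, adjusted p = 0.0292), and NAM had 3.1, 2.28 and 2.58 TPM with sucrose, against 4.2, 4.88 and 4.77 TPM with sorbitol (log2 change -0.62, SE 0.156, adjusted p = 0.0151). In phyA-211, NARS1 had 8.41, 11.01 and 7.11 TPM with sucrose and 8.93, 11.9 and 12.5 TPM with sorbitol, and NAM had 2.93, 2.88 and 3.43 TPM with sucrose and 2.9, 4.13 and 3.62 TPM with sorbitol, with overlap in both. NAC089, a membrane-anchored factor known from fructose sensing and from stress of the endoplasmic reticulum, had 12.5, 10.8 and 10.7 TPM in Col-0 with sucrose, against 16.1, 15.2 and 15.5 TPM with sorbitol (log2 change -0.43, SE 0.131, adjusted p = 0.0362). NAC105 (VND3, which acts in vessel formation) had 1.24, 1.24 and 0.92 TPM in Col-0 with sucrose, against 2.47, 2.02 and 1.95 TPM with sorbitol (log2 change -0.56, SE 0.166, adjusted p = 0.0318). The groups of these 4 genes did not overlap in Col-0. The NARS1 call was lost on leaving out any of replicates 1, 2 and 3 of Col-0 with sucrose or replicates 2 and 3 of Col-0 with sorbitol (adjusted p up to 0.107). That of NAC089 was lost on leaving out any of replicate 2 of phyA-211 with sucrose, replicates 2 and 3 of Col-0 with sucrose or replicates 1, 2 and 3 of Col-0 with sorbitol (adjusted p up to 0.118). For NAC105 this held on leaving out any of replicates 1, 2 and 3 of Col-0 with sucrose or replicates 1, 2 and 3 of Col-0 with sorbitol (adjusted p up to 0.103). NAM was lost without replicate 2 or replicate 3 with sorbitol or replicate 2 with sucrose (adjusted p of 0.0508, 0.0541 and 0.0682).

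Rises with sucrose were few. NAC044, a target of the DNA damage regulator SOG1 that holds cells before division, rose in both genotypes. It had 4.01, 4.96 and 12.6 TPM in phyA-211 with sucrose, against 1.19, 2.05 and 1.12 TPM with sorbitol (log2 change 1.61, SE 0.345, adjusted p = 0.0079). The Col-0 libraries held 2.28, 4.28 and 3.67 TPM with sucrose, against 0.36, 0.95 and 0.39 TPM with sorbitol (log2 change 1.49, SE 0.345, adjusted p = 0.0109). The groups did not overlap in either genotype, and replicate 3 of phyA-211 with sucrose was the highest library. Without it the change in phyA-211 was 1.18 on the log2 scale with adjusted p = 0.0158. SOG1 itself did not pass, at 8.59 to 12.5 TPM over the 12 libraries.

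NAC13, a membrane-anchored activator of mitochondrial stress genes, had 14.2, 17.3 and 38.1 TPM in phyA-211 with sucrose, against 9.43, 12.7 and 10.3 TPM with sorbitol (log2 change 0.91, SE 0.273, adjusted p = 0.0291). Replicate 3 lay far above the other sucrose libraries, and without it the change was 0.50 on the log2 scale with adjusted p = 0.0393. The call was lost without replicate 1 or replicate 3 of phyA-211 with sorbitol (adjusted p of 0.0897 and 0.0888) and with only the 6 phyA-211 libraries in the fit (adjusted p = 0.109). In Col-0 NAC13 had 14.5, 16.3 and 13.8 TPM with sucrose and 11.2, 10.8 and 10.8 TPM with sorbitol, which did not overlap and did not pass with 12 libraries, while without replicate 3 of phyA-211 with sucrose in the fit the change in Col-0 was 0.40 on the log2 scale with adjusted p = 0.0408. NAC097 rose in Col-0, at 4.77, 4.74 and 7.1 TPM with sucrose, against 2.9, 2.71 and 2.56 TPM with sorbitol (log2 change 0.79, SE 0.164, adjusted p = 0.0062). In phyA-211 NAC097 was higher in every sucrose library and did not pass, at 5.14, 5.0 and 5.6 TPM with sucrose and 3.15, 3.55 and 4.23 TPM with sorbitol. CUC2, which marks boundaries between organs, rose in phyA-211, at 1.17, 1.2 and 1.47 TPM with sucrose, against 0.74, 0.44 and 0.29 TPM with sorbitol (log2 change 0.62, SE 0.211, adjusted p = 0.047). Its values were near 1 TPM, and the call was lost on leaving out any library except replicate 1 of Col-0 with sucrose (adjusted p up to 0.161) and under both other scalings.

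**Figure D4:**
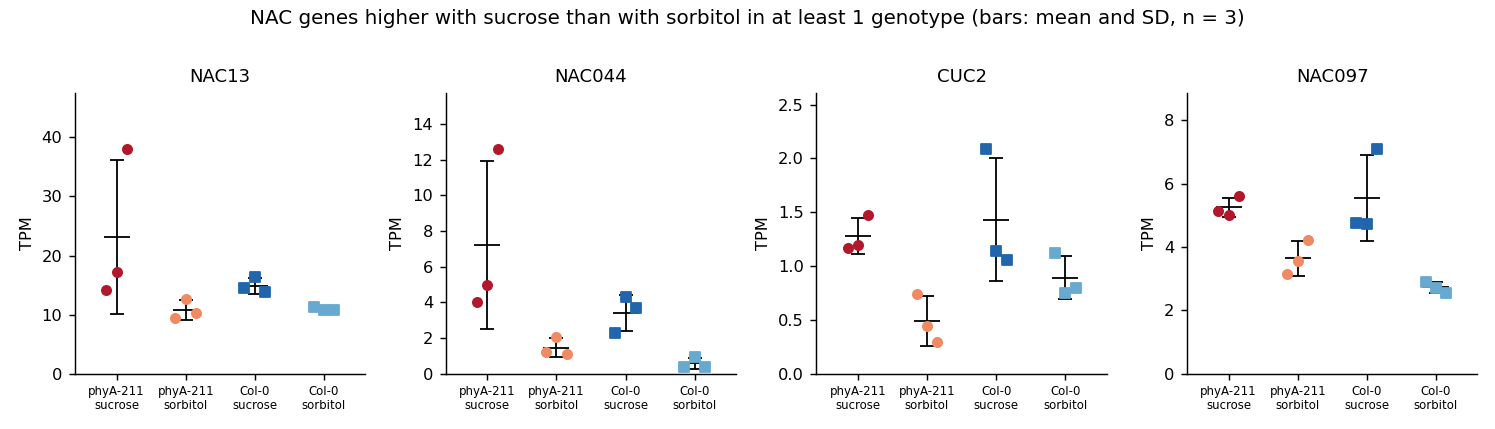
TPM in each library for the 4 NAC genes that rose with sucrose in at least 1 genotype, with the mean and SD of 3 libraries per group. NAC044 is higher with sucrose in both genotypes; in phyA-211 replicate 3 with sucrose is the highest point for NAC13 (38.1 TPM) and NAC044 (12.6 TPM).

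The sucrose change was then compared between genotypes. No member passed the test of the genotype by sugar interaction in limma, in either direction, and 0.0101% of all genes tested passed. Of the 56 members, 2 had an unadjusted p under 0.05. The like share of all genes tested was not computed, so that count has no background. ORE1 had the smallest p, with a fall that was smaller in phyA-211 by 0.85 on the log2 scale (SE 0.304, 95% interval 0.19 to 1.52, unadjusted p = 0.0162, adjusted p = 0.999). NAC083 followed, at -0.56 (SE 0.221, 95% interval -1.04 to -0.07, unadjusted p = 0.0275, adjusted p = 0.999). Without replicate 3 of phyA-211 with sucrose, no member passed either, and the interaction was 1.12 for ORE1 (adjusted p = 0.214) and -0.72 for NAC083 (adjusted p = 0.346). RD26 had 1.08 in that fit (adjusted p = 0.213), against 0.63 with all 12 libraries (adjusted p = 0.999). Genes that passed in 1 genotype and not in the other were therefore not shown to respond differently.

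Between genotypes the NAC genes leaned to higher levels in the mutant. With sucrose, 7 of the 56 genes were higher in phyA-211 than in Col-0 (12.5%) and none was lower in limma. Of all genes tested, 4.15% were higher and 3.25% lower (7.4% in either direction). With sorbitol, 2 were higher (3.57%), against 0.775%, and none was lower, against 1.38% (2.15% in either direction). At unadjusted p under 0.05, 15 members were higher and 1 lower with sucrose, and 12 were higher and 0 lower with sorbitol. Shares of all genes at unadjusted p were not computed. The median log2 difference was 0.23 with sucrose and 0.25 with sorbitol, beside 0.12 and 0.09 over all genes tested. With sucrose, libraries of the genotypes did not overlap for 16 higher and 2 lower members, against 19.2% and 8.41% of all genes tested. With sorbitol this held for 17 higher and 2 lower members, against 13.4% and 6.63%. Median-ratio scaling gave 39.8% higher among the calls over all genes with sucrose, against 56.1% here. The 2 genes higher with sorbitol, ATAF1 and NAC016, were also among the 7 with sucrose (28.6% of those). The like overlap over all genes tested was not computed.

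The log2(TPM + 1) scale understates differences of low genes such as NAC103, and on it ORE1 had the largest of the 7. ORE1 with sucrose stood at 33.8, 28.4 and 17.4 TPM in phyA-211 and 9.05, 8.08 and 10.6 TPM in Col-0 (log2 difference 1.38, SE 0.215, adjusted p = 0.00269). With sorbitol it had 56.1, 45.6 and 61.3 TPM in phyA-211 and 34.5, 34.01 and 43.4 TPM in Col-0, which did not overlap and did not pass. NARS1 had 8.41, 11.01 and 7.11 TPM in phyA-211 with sucrose, against 3.78, 3.79 and 3.95 TPM in Col-0 (log2 difference 1.01, SE 0.177, adjusted p = 0.00583). With sorbitol NARS1 had 8.93, 11.9 and 12.5 TPM in phyA-211 and 5.83, 7.74 and 5.76 TPM in Col-0 and did not pass. Both genes were higher in every mutant library under each sugar.

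NAC016, a promoter of senescence, was under or near 1 TPM in Col-0 throughout. It had 1.95, 2.5 and 3.08 TPM in phyA-211 with sucrose, against 0.84, 1.08 and 1.15 TPM in Col-0 (log2 difference 0.79, SE 0.179, adjusted p = 0.0222). With sorbitol it had 2.17, 2.63 and 2.92 TPM in phyA-211, against 0.48, 0.63 and 0.73 TPM in Col-0 (log2 difference 1.14, SE 0.179, adjusted p = 0.00628). NAC016 separated the genotypes completely under each sugar, while its neighbour on the chromosome, NAC017, held 28.9 to 34.3 TPM in phyA-211 and 22.8 to 31.4 TPM in Col-0 and passed in no comparison. The NAC016 call with sucrose was lost on leaving out any of replicates 2 and 3 of phyA-211 with sucrose or replicates 1, 2 and 3 of Col-0 with sucrose (adjusted p up to 0.0779) and with only the 6 sucrose libraries in the fit (0.0852). NAC103, which acts when unfolded proteins build up in the endoplasmic reticulum, had 2.47, 2.67 and 4.62 TPM in phyA-211 with sucrose, against 1.1, 0.59 and 0.77 TPM in Col-0 (log2 difference 1.20, SE 0.214, adjusted p = 0.00605). Without replicate 3 of phyA-211 with sucrose the NAC103 difference was 0.98 (adjusted p = 0.0125). With sorbitol NAC103 had 1.6, 1.71 and 1.94 TPM in phyA-211 and 0.68, 0.67 and 0.39 TPM in Col-0. That difference did not pass, although the groups did not overlap.

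ATAF1 was higher in phyA-211 than in Col-0 with sucrose (log2 difference 0.71, SE 0.149, adjusted p = 0.0152) and with sorbitol (log2 difference 0.68, SE 0.149, adjusted p = 0.0389), with no overlap of libraries. The call with sucrose was lost without replicate 2 of Col-0 or replicate 2 of phyA-211 with sucrose (adjusted p of 0.0568 and 0.0726), and that with sorbitol on leaving out any library except replicate 3 of phyA-211 with sucrose, replicate 1 of phyA-211 with sorbitol or replicates 1 and 3 of Col-0 with sucrose (up to 0.198) and under both other scalings. ATAF2 was higher in phyA-211 with sucrose (log2 difference 0.83, SE 0.222, adjusted p = 0.0434), with 79.3 TPM in replicate 3 and at most 47.5 TPM in the other phyA-211 sucrose libraries, against at most 36.99 TPM in Col-0 with sucrose. That call was lost on leaving out any library except replicates 1 and 2 of phyA-211 with sorbitol or replicate 3 of Col-0 with sorbitol (adjusted p up to 0.164). NAC089 had 16.2, 17.4 and 21.3 TPM in phyA-211 with sucrose, against 12.5, 10.8 and 10.7 TPM in Col-0 (log2 difference 0.64, SE 0.131, adjusted p = 0.0127), and was lost without replicate 2 of Col-0 with sucrose (adjusted p = 0.0685). Without replicate 3 of phyA-211 with sucrose, ANAC055 (1.11 on the log2 scale with adjusted p = 0.00581) and RD26 (1.18 on the log2 scale with adjusted p = 0.00122) were also higher in phyA-211 with sucrose and ATAF2 and NAC016 no longer passed, again 7 genes. With sorbitol the same fit called 4 genes, adding NARS1 and NAC103. Of all genes tested, 4.71% were higher in phyA-211 with sucrose and 1.62% with sorbitol in that fit. With 12 libraries these shares were 4.15% and 0.775%.

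**Figure D5:**
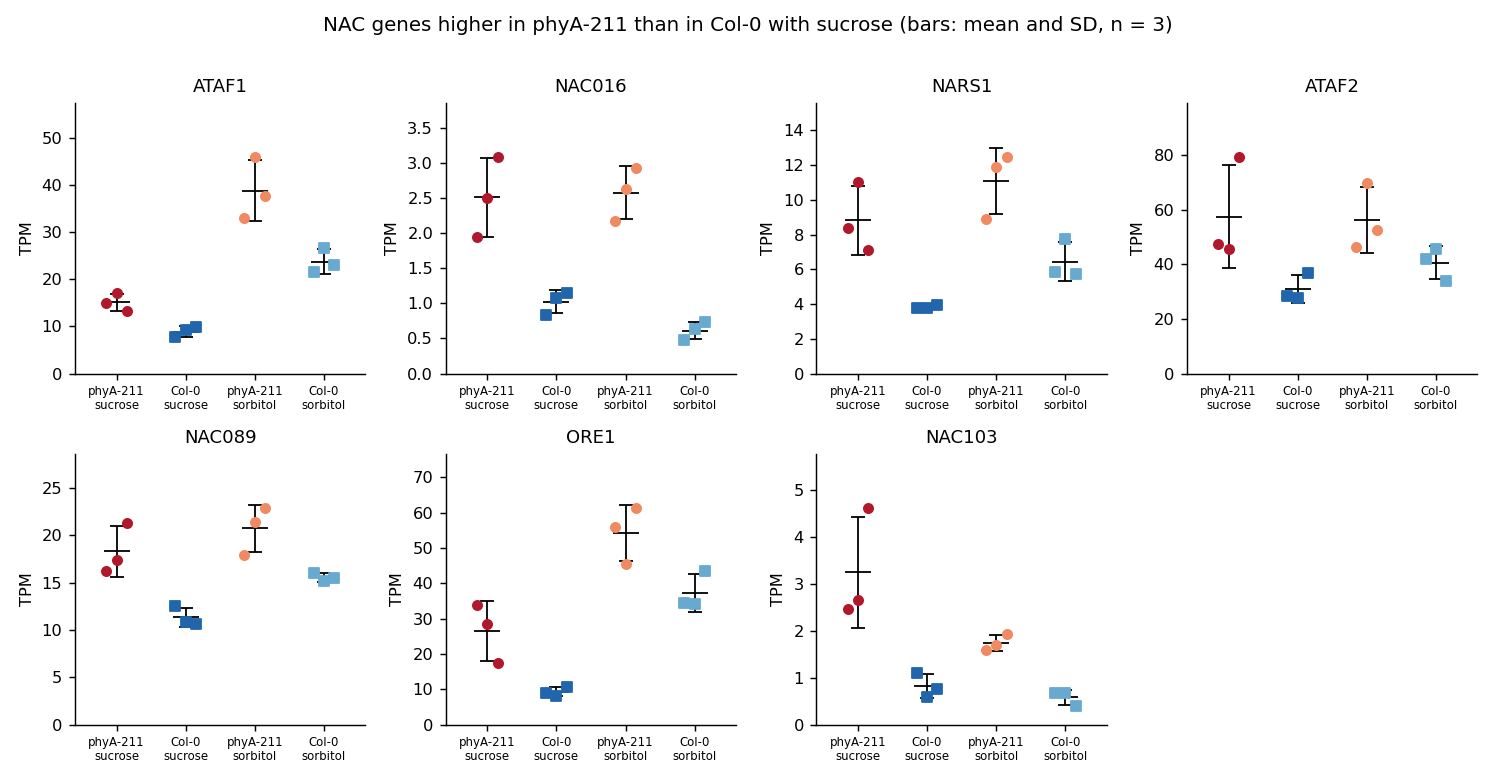
TPM in each library for the 7 NAC genes that were higher in phyA-211 than in Col-0 with sucrose, with the mean and SD of 3 libraries per group. In each panel the phyA-211 sucrose points lie above the Col-0 sucrose points, and ORE1 is lowest in Col-0 with sucrose (8.08 to 10.6 TPM).

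Among the 10 senescence factors within the members, 8 passed the filter. With sucrose, 4 fell in phyA-211 (ORE1, ORS1, NAC046 and NAC083) and 2 in Col-0 (ORE1 and ORS1), and none rose, with medians of -0.34 and -0.08, while 10.5% and 9.95% of all genes tested fell. The same shares are the background for falls in the other roles below, and 16.9% and 12.1% are the background for rises. Among the rest was ANAC087, linked to cell death in the root cap. It held 2.17 to 9.36 TPM over the 12 libraries and passed in no comparison. NAC053 (NTL4), which raises reactive oxygen in drought, held 6.18 to 13.8 TPM and NAC075 1.33 to 2.41 TPM over the 12 libraries, and neither passed in any comparison. NAC042 (JUB1, which prolongs leaf life) and NAC090 were below the filter.

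NAP, a NAC gene that promotes leaf senescence, lies outside the rule because its symbol and description do not match it. It fell with sucrose in both genotypes. In phyA-211 it had 18.2, 15.9 and 2.91 TPM with sucrose, against 48.6, 34.02 and 45.9 TPM with sorbitol (log2 change -2.00, SE 0.475, adjusted p = 0.0117). Its level in Col-0 was 1.45, 1.69 and 3.35 TPM with sucrose, against 26.9, 30.5 and 28.4 TPM with sorbitol (log2 change -3.27, SE 0.475, adjusted p = 0.00153). Replicate 3 of phyA-211 with sucrose stood at the Col-0 level and its other libraries above it, as for RD26. NAP was higher in phyA-211 than in Col-0 with sucrose (log2 difference 1.82, SE 0.475, adjusted p = 0.0398), and its interaction did not pass (log2 difference 1.27, SE 0.672, adjusted p = 0.999). Without that replicate the change in phyA-211 was -1.27 with adjusted p = 0.00639, the difference with sucrose was 2.56 with adjusted p = 0.000139, and the interaction was 2.00 with adjusted p = 0.124.

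The 6 genes that miR164 is known to target (CUC1, CUC2, NAC1, NAC080, NAC100 and ORE1) did not share a direction. With sucrose, CUC2 rose and ORE1 fell in phyA-211, and ORE1 fell in Col-0, with list medians of -0.47 and 0.04. NAC1, which acts in lateral root formation, had 9.71, 12.3 and 9.61 TPM in phyA-211 with sucrose and 12.3, 17.7 and 18.03 TPM with sorbitol, and 8.01, 5.81 and 7.57 TPM in Col-0 with sucrose and 7.97, 9.9 and 15.1 TPM with sorbitol, and did not pass. NAC080 held 2.04 to 7.56 TPM and NAC100 0.8 to 2.25 TPM over the 12 libraries. CUC1 and CUC2 stand beside a signal of meristem genes. The 6 shoot apical meristem markers summed to 55.9 to 58.8 TPM in phyA-211 with sucrose and 69.1 to 91.1 TPM with sorbitol, and to 36.5 to 52.2 TPM in Col-0 with sucrose and 58.7 to 64.1 TPM with sorbitol. Most of that sum was CLV1, a receptor kinase, which fell with sucrose, while CLV3 reached at most 1.24 TPM and WUS at most 0.24 TPM, and the part of this signal in the CUC2 values was not tested.

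Of the 10 membrane-anchored factors within the members, 9 passed the filter. With sucrose, 1 rose in phyA-211 (NAC13) and 1 fell in Col-0 (NAC089). NAC016 and NAC089 were higher in phyA-211 than in Col-0 with sucrose, as were 4.15% of all genes tested. NAC062 (NTL6, which links cold to defence genes) had 19.3, 21.2 and 40.1 TPM in phyA-211 with sucrose and 15.4, 22.5 and 18.7 TPM with sorbitol and did not pass. NAC014 held 10.1 to 18.4 TPM and NAC069 5.1 to 7.64 TPM over the 12 libraries. NAC060, known from sugar sensing by seedlings, was below the filter, with at most 0.560 TPM. For NAC13, NAC062 and NAC044 alike, replicate 3 of phyA-211 with sucrose was the highest of the 12 libraries. This was not particular to them, as it also held for NAC082, ANAC078, ATAF2, NAC103 and other members. That library had the largest size factor of the 12 in median-ratio scaling, at 1.172.

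Factors of vessels and fibres stayed low. Of the 10 within the members, 7 passed the filter, with NAC105 as the only call, and they held at most 3.66 TPM (NAC010) in any library. NAC101 (VND6, which acts in vessel formation) had 1.16, 1.05 and 2.42 TPM in phyA-211 with sucrose and 0.26, 0.92 and 0.67 TPM with sorbitol, and 2.16, 1.84 and 1.06 TPM in Col-0 with sucrose and 0.8, 0.56 and 0.4 TPM with sorbitol. Its groups did not overlap in either genotype, and it passed in Col-0 only in the fit without replicate 3 of phyA-211 with sucrose (0.74 on the log2 scale with adjusted p = 0.034). The 8 xylem markers, among them the proteases XCP1 and XCP2, summed to 101 to 108 TPM in phyA-211 with sucrose and 84.2 to 112 TPM with sorbitol, and to 89.2 to 109 TPM in Col-0 with sucrose and 60.7 to 86.5 TPM with sorbitol. The sum was thus higher with sucrose in Col-0, while NAC105 fell there, and the part of xylem tissue in that value was not tested. The root cap factors SMB, NAC015, NAC070 and FEZ were all below the filter, with at most 0.800 TPM. NAC050 and NAC052, partners of a histone demethylase, held 17.2 to 28.3 TPM and 19.2 to 36.4 TPM and passed in no comparison. They lie next to each other and to NAC053 on the chromosome, and reads of such similar copies may be split between them.

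Adjacent members did not always share a call, and no test compared the changes of neighbours. In the RefSeq order of assembly TAIR10.1, 6 adjacent pairs stood among the 56 genes. ANAC055 fell with sucrose in both genotypes, while its neighbour NARS1 fell in Col-0 and did not pass in phyA-211. NAC019 fell in both genotypes, while its neighbour NAM fell in Col-0 alone of the calls. NAC047 fell in both and NAC046 in phyA-211, while NAC016 and NAC017, and the 2 pairs formed by NAC050, NAC052 and NAC053, had no call for sucrose.

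Genes known to act downstream of, or beside, these factors were followed as lists. Their changes can be read against medians of 0.11 in phyA-211 and 0.08 in Col-0 over all genes tested. Of all genes tested, 10.5% fell and 16.9% rose with sucrose in phyA-211, and 9.95% fell and 12.1% rose in Col-0. Of 15 senescence and chlorophyll breakdown genes tested, 7 fell with sucrose in phyA-211 and 6 in Col-0, and none rose, with median log2 changes of -0.59 and -0.42. Without replicate 3 of phyA-211 with sucrose, 6 fell in phyA-211, against 7.62% of all genes tested. NYE1, which removes magnesium from chlorophyll, had 10.8, 11.2 and 6.6 TPM in phyA-211 with sucrose, against 18.97, 18.3 and 20.6 TPM with sorbitol (log2 change -0.98, SE 0.174, adjusted p = 0.00429). Wild-type libraries had 8.96, 7.11 and 7.04 TPM with sucrose, against 15.8, 17.03 and 18.1 TPM with sorbitol (log2 change -1.05, SE 0.174, adjusted p = 0.00262). PPH, the pheophytinase, fell too (log2 change -0.62, SE 0.148, adjusted p = 0.0118 in phyA-211, and log2 change -1.07, SE 0.148, adjusted p = 0.00128 in Col-0) and was higher in phyA-211 than in Col-0 with sucrose (log2 difference 0.75, SE 0.148, adjusted p = 0.0109). In that comparison 2 of the 15 genes were higher, the other being SAG20 (log2 difference 0.99, SE 0.165, adjusted p = 0.00418), and 1 was lower. The lower gene was NYC1, a chlorophyll b reductase (log2 difference -0.95, SE 0.149, adjusted p = 0.0029). Of all genes tested, 4.15% were higher and 3.25% lower. Without replicate 3 of phyA-211 with sucrose, 4 of the 15 were higher and 1 lower, against 4.71% and 3.4%. In that fit the sucrose change in phyA-211 was -0.76 for NYE1 (adjusted p = 0.005) and -0.44 for PPH (adjusted p = 0.023). SAG12, a protease of late senescence, was listed at 0 in every library.

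Among 11 abscisic acid and jasmonate output genes tested, 3 fell with sucrose in each genotype and none rose, with medians of -0.47 in phyA-211 and -0.22 in Col-0. They were the trehalase gene TRE1, the drought-induced gene RD20 and ERD1, a plastid protease subunit. The jasmonate genes VSP1 and LOX2 did not pass, at -0.47 and 0.58 in phyA-211 and 0.33 and 0.73 in Col-0. Lower jasmonate output was therefore not shown. RD29A, RD29B and ABI5 did not pass in either genotype. TRE1 had 5.32, 5.22 and 4.97 TPM in phyA-211 with sucrose, against 9.06, 11.3 and 9.38 TPM with sorbitol (log2 change -0.82, SE 0.125, adjusted p = 0.00271). In Col-0 it had 3.76, 3.14 and 3.33 TPM with sucrose, against 9.23, 9.0 and 8.36 TPM with sorbitol (log2 change -1.16, SE 0.125, adjusted p = 0.000782). With sucrose TRE1 was higher in phyA-211 than in Col-0 (log2 difference 0.49, SE 0.125, adjusted p = 0.0378). With sorbitol TRE1 did not pass between genotypes (log2 difference 0.14, SE 0.125, adjusted p = 0.691). Of the 11 genes, 2 were higher in phyA-211 with sucrose and 1 was lower, with a median of 0.06. Of all genes tested, 4.15% were higher and 3.25% lower. The other higher gene was ERD1 (log2 difference 0.72, SE 0.164, adjusted p = 0.0218). The lower gene was DREB2A (log2 difference -1.19, SE 0.288, adjusted p = 0.0302). NCED3, which makes the precursor of abscisic acid, did not pass and reached at most 3.65 TPM.

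Of 10 mitochondrial stress genes tested, known targets of NAC13 and NAC017, 8 rose with sucrose in phyA-211 and 4 in Col-0. None fell, the medians were 1.70 and 1.18, and 16.9% and 12.1% of all genes tested rose. AOX1A, the alternative oxidase, had 27.2, 35.8 and 117 TPM in phyA-211 with sucrose, against 12.3, 17.95 and 13.3 TPM with sorbitol (log2 change 1.69, SE 0.393, adjusted p = 0.0108). The Col-0 libraries held 26.6, 31.4 and 27.6 TPM with sucrose and 14.96, 15.8 and 15.3 TPM with sorbitol without overlap, and did not pass. Replicate 3 of phyA-211 with sucrose was the highest of the 12 libraries for AOX1A, as for NAC13 and members of other roles. Without that replicate 6 of the 10 genes rose in phyA-211 (median 1.09) and 7 in Col-0, against 9.64% and 15.8% of all genes tested. In that fit the AOX1A change was 1.07 in phyA-211 (adjusted p = 0.00343) and passed in Col-0, at 0.85 (adjusted p = 0.00192). SOT12, a sulfotransferase, rose in both genotypes (log2 change 1.70, SE 0.37, adjusted p = 0.00843 in phyA-211, and log2 change 1.43, SE 0.37, adjusted p = 0.018 in Col-0), and its change in phyA-211 was 1.12 without that replicate (adjusted p = 0.00275). HSP23.5 had the smallest adjusted p of the list in each genotype (log2 change 3.47, SE 0.524, adjusted p = 0.00269 in phyA-211, and log2 change 3.36, SE 0.524, adjusted p = 0.00204 in Col-0). Without that replicate its change in phyA-211 was 2.65 (adjusted p = 0.000543).

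Among 6 SOG1 targets tested, BRCA1, a DNA repair gene, rose with sucrose in both genotypes (log2 change 1.00, SE 0.248, adjusted p = 0.0138 in phyA-211, and log2 change 1.07, SE 0.248, adjusted p = 0.0109 in Col-0), PARP2 rose in Col-0, and SMR7, an inhibitor of the cell cycle, fell in phyA-211. Without replicate 3 of phyA-211 with sucrose the BRCA1 call in phyA-211 was lost (adjusted p = 0.0512). SMR7 also differed between genotypes, at 7.93, 7.28 and 7.34 TPM in phyA-211 with sorbitol, against 0.65, 0.7 and 0.4 TPM in Col-0 (log2 difference 2.43, SE 0.23, adjusted p = 0.000267). In all, 3 of the 6 were higher in phyA-211 with sorbitol and 2 with sucrose, and none was lower. Of all genes tested, 0.775% were higher and 1.38% lower with sorbitol, and 4.15% and 3.25% with sucrose. Of 12 secondary wall genes tested, FRA8 fell with sucrose in phyA-211, XCP2 rose in Col-0, and 10 had no call in either. Of 6 meristem and boundary genes, CLV1 fell in both genotypes (log2 change -0.62, SE 0.162, adjusted p = 0.0175 in phyA-211, and log2 change -0.87, SE 0.162, adjusted p = 0.00397 in Col-0) and was the only call with sucrose. Without replicate 3 of phyA-211 with sucrose it no longer passed in phyA-211 (adjusted p = 0.0604).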

How the data were processed

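The authors deposited 1 table of TPM for 32833 genes in 12 libraries of poly(A) RNA from leaf portions, per the file headers. The submitters' processing notes list fastp, cutadapt, HISAT2 and DESeq2 as tools and TAIR10 as the build, with neither roles nor versions. Which program and annotation gave the TPM values is not stated there. Depth is unknown, so no counting interval is given. Symbols came from the table. A RefSeq table of assembly TAIR10.1, which held all 106 members, gave names where the file uses a symbol for 2 loci, and gene order. No coordinates or sequences are given.

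Values of genes that reached 1 TPM in 3 or more libraries were transformed to log2(TPM + 1) and fitted as 4 group means with limma 3.58.1 in R 4.3.3 (eBayes with a trend, 8 residual and 3.68 prior degrees of freedom), with no replicate block. Tests were 2-sided and adjusted by Benjamini-Hochberg over 19862 genes. The fit was tested on simulated data. Where values are given without the sucrose-treated phyA-211 replicate 3, the fit had 11 libraries.

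The members, role groups and lists were chosen with earlier results of these data known. Named genes are the members called in a comparison (up to 12 a direction, by size), the senescence, ATAF, stress, miR164 and boundary members above the filter, and up to 4 genes of each downstream list with the smallest adjusted p. Other genes named were chosen after their values were seen. The result of 1 gene of the SOG1 target list is not reported here. Alternatives were another pseudocount, no filter, median-ratio and quantile scaling, only the groups compared, a replicate block and leaving out each library.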

Additional observations from a re-analysis of the deposited data

How the results depend on the processing

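None of the 39 calls of members changed sign under any alternative run. Of their 702 values under the alternatives, 582 stayed past the threshold and 120 did not. With only the groups compared in the fit, which leaves fewer libraries to estimate the spread, 1 member rose and 7 fell with sucrose in phyA-211, 5 rose in Col-0, and 3 with sucrose and 1 with sorbitol were higher in phyA-211 than in Col-0. The calls lost in this way had adjusted p of 0.0541 to 0.112, among them ATAF1 (0.055) and NAC089 (0.0674) between genotypes with sucrose. Over all genes this setting gave 1621 rises and 1088 falls in phyA-211, against 3361 and 2093 with all 4 groups in the fit. In Col-0 it gave 2679 rises, against 2412. Between genotypes 266 genes were higher in phyA-211 with sucrose and 93 with sorbitol, against 824 and 154. Without the filter and under quantile normalization, 1 member was higher in phyA-211 with sorbitol, and the cause was not tested. Over all genes 137 were higher there without the filter and 148 under quantile normalization. Leaving out each library in turn gave 1 to 4 rises and 8 to 13 falls in phyA-211, 2 to 4 rises and 8 to 14 falls in Col-0, 1 to 4 members higher in phyA-211 with sorbitol and 3 to 8 with sucrose, and 0 lower. The fewest falls of members in Col-0, 8, came without replicate 2 or 3 with sorbitol or replicate 2 with sucrose. Over all genes, leaving out each library gave 1336 to 4146 rises and 980 to 2096 falls in phyA-211. In Col-0 it gave 1142 to 3148 rises and 1120 to 2352 falls. Between genotypes 52 to 322 genes were higher in phyA-211 with sorbitol and 254 to 936 with sucrose.

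Deviations of same-numbered libraries correlated at -0.131 to 0.310, and no comparison had all 3 pairs over 0.1, so the numbers were not taken to pair the samples. With the replicate number as a block, 3 members rose and 9 fell in phyA-211, 2 rose and 11 fell in Col-0, and 2 with sorbitol and 6 with sucrose were higher in phyA-211. Over all genes the block gave 2971 rises and 2005 falls in phyA-211 and 2181 rises and 1848 falls in Col-0. Between genotypes 138 genes were higher in phyA-211 with sorbitol and 637 with sucrose. Median-ratio scaling moved the median change of all genes with sucrose in phyA-211 to -0.02, against 0.11, and gave 15 falls and 2 rises there and 17 falls and 3 rises in Col-0. Falls over all genes went up too, to 2980 in phyA-211 and 2894 in Col-0, against 2093 and 1976. CUC2, NAC016, NAC019 and NAC103 reached at most 4.62 TPM in any library, and the number of reads behind such values is unknown.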

Other observations

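The 3 genes of the microRNA family that targets CUC1, CUC2, NAC1, NAC080, NAC100 and ORE1, listed as ath-MIR164a, ath-MIR164b and ath-MIR164c, were listed at 0 in the 12 libraries, which hold poly(A) RNA. Of the 50 NAC members below the filter, 17 were listed at 0 in every library and 6 reached 1 TPM in 1 or 2 libraries, among them NAC036 and NAC085 with highest values of 1.06 and 1.05 TPM.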
